A study of Rattus norvegicus with 16 samples.

Results

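The genes described here are 8 antimicrobial and secretory defence genes of the airway, Defb4, Gp2, Pigr, Scgb1a1, Lyz2, Lcn2, Bpifa1 and Reg3g, in rat lung. They were taken by gene symbol, with every probe set that the platform annotation gives to a symbol, and 7 of the 8 genes had 1 probe set each, so that 7 of the 15866 probe sets that are not controls are described. Bpifa1 was not analysed here. The 7 genes are among 10411 genes with a probe set of their own on the array.

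Lung RNA was measured in 4 groups of 4 rats, labelled as biological replicates: spontaneously hypertensive (SH) rats exposed to sulfur dioxide (SO2), SH rats in air, Sprague Dawley (SD) rats exposed to SO2 and SD rats in air. The SH rat is an inbred strain with high blood pressure, the SD rat is an outbred stock, and SO2 is an irritant gas that acts on the airway lining. The study asks about airway disease under SO2 in the SH strain, so each gene was compared between SO2 and air within a strain and between strains within an exposure. The sources used here give no dose, duration or age, and strain differences may include anything else in which the animals differed.

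The airway lining protects itself by secretion. Club cells and other secretory cells of the bronchioles release secretoglobins and antimicrobial proteins, macrophages and alveolar cells add lysozyme, and a transport receptor carries antibodies from the tissue to the surface. Several of these genes are known to be switched on in epithelium by interleukin 1, interleukin 17 and related signals, through NF-kappaB, Stat3 and C/EBP factors.

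Each value below is a signal, the linear intensity of a probe set as deposited, given for replicates 1 to 4 in that order or as a mean with its SD. Replicates 1 to 4 of a group follow the running number in the array titles, in which arrays of a group mostly stand side by side. A difference is on the scale of log2(signal + 16) with its standard error (SE), and its p-value comes from limma fitted over 11106 probe sets, with Benjamini-Hochberg adjustment over all of them. Calls are made where that adjusted p is below 0.05. The genes were chosen by their values in the 4 groups compared here, from earlier results of the same arrays, so their differences are a description, and their p-values only set a difference against the spread between arrays and are not independent evidence about the genes. In whole lung, fewer cells of a type and less RNA per cell cannot be told apart. Levels of different probe sets are not compared with each other.

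The lung label was checked against defining markers. Sftpc, surfactant protein C of alveolar type II cells, lay between 24003.9 and 45111.2 on the 16 arrays, and Ager, of alveolar type I cells, lay between 10829.3 and 19344. Medians of the arrays ran from 250.2 to 281.4 and the trimmed means were all 500.1, so scaling was alike, while the ratio of the 3' to the 5' actin probe sets ran from 1.292 to 3.123. The array labelled SD air replicate 2 stood apart from its group. Terf2ip, a telomere-associated gene whose signal separated the strains on the other arrays, was 693.8 there, while the 3 remaining arrays of SD air had 1982.2 to 2363.4 and those of SH air 424.8 to 733.2. For Gsta3, a glutathione transferase, it was 282.7 there, while the other SD air arrays had 96.7 to 114.6 and the SH air arrays 251.6 to 378.0. The Terf2ip and Gsta3 values go against the array's label, which may be wrong. Not every gene lay in the SH air range there. Cyp2f4 was 988.3, against 693.3 to 898 in SH air, and Lypd2 was 277.8, against 162.4 to 263.3. Both were still the lowest of the SD air group. The SD air means and the strain differences in air rest on the array's label. The array is kept under its label, and values without it are given beside results that rest on it. Since it was singled out by SH-like values, leaving it out widens the strain differences of such genes by choice. Calls made only without it are therefore a description and not separate evidence. The array of SD SO2 replicate 4 stood apart at the top of the signal range, with a mean of 25853 over its 20 highest probe sets, against 19262 to 22611 on the other 15 arrays.

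Promoter windows from RefSeq on build GRCr8, 250 bases before to 50 after the annotated start, were at hand for 7 of the 8 genes. Defb4 had no window and was not searched. They are shown for the pairs of genes whose signals varied together between arrays, as described below: Scgb1a1 (chr1:215409637-215409936, minus strand) with Lyz2 (chr7:54797962-54798261, minus strand), and Gp2 (chr1:183243905-183244204, minus strand) with Reg3g (chr4:112484689-112484988, minus strand). Sequences run 5′ to 3′ along the gene, and capitals mark a TATA box (TATAAA) or a C/EBP type motif (TTGCNNAA).
Scgb1a1: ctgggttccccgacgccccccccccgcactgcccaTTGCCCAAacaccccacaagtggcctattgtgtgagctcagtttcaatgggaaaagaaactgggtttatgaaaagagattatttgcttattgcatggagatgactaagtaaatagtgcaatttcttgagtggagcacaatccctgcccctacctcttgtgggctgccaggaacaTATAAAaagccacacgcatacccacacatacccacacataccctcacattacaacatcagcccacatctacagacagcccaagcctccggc
Lyz2: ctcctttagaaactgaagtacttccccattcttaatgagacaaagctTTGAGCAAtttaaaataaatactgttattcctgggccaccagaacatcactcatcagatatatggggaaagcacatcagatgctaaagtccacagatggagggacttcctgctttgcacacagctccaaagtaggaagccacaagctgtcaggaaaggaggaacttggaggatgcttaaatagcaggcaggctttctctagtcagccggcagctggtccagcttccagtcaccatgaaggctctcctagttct
Gp2: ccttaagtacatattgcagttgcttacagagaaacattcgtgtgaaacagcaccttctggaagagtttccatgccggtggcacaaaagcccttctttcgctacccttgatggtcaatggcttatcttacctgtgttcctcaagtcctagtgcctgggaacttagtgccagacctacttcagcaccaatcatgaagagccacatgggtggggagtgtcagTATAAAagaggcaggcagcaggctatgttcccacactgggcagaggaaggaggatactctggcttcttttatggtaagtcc
Reg3g: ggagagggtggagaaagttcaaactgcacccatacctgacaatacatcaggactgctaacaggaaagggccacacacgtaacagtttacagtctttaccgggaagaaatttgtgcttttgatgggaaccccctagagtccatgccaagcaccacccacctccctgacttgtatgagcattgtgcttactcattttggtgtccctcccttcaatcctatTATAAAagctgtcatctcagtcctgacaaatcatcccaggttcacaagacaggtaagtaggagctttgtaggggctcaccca
Both strands were searched for these motifs and for the E-box (CACGTG), the paired STAT motif (TTCNNNGAA) and the AP-1 motif (TGANTCA). The TATA box began 41 bases before the start in Scgb1a1, 31 in Gp2, 32 in Reg3g and 47 in Bpifa1. It is found in 14.2% of all 33469 promoter windows of this length. The C/EBP type motif began 215 bases before the start in Scgb1a1, 203 in Lyz2, on the opposite strand, and 191 in Lcn2, and is found in 10.6% of windows. The E-box was found in Pigr, at 73 bases before the start, and is in 6.42% of windows. The AP-1 motif was found in Bpifa1, at 173 bases before the start, and is in 7.33% of windows. The paired STAT motif, in 8.87% of windows, was in none of the 7 windows, which do not include Defb4. A match is a description of the letters and not of a site in use.

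Defb4, a beta-defensin that kills bacteria on epithelial surfaces (probe set 1387960_at, gene at chr16:77352911-77356104 of GRCr8), was lower in SH than in SD rats under SO2, with the smallest p of the 6 tested genes. In SH rats its signal was 5717.3, 6106.8, 6390.0 and 6893.7 in SO2, against 7697.4, 9967.1, 6876.6 and 8711.6 in air. In SD rats it was 16080.6, 16846.4, 16801.2 and 21204.9 in SO2, against 15477.1, 8378.4, 14625.0 and 12630.3 in air. All 4 SH SO2 arrays lay below all 4 SD SO2 arrays, and the SH SO2 values were close to each other.

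The mean of Defb4 in SO2 was 6277 ± 495 for SH and 17733 ± 2341 for SD rats (SD, n = 4 each), a log2 difference of -1.49 (SE 0.157, 95% interval -1.82 to -1.16, limma adjusted p = 5.77e-05). It ranked 2 by p among the 11106 probe sets in this comparison. It was one of 2 of the 6 tested genes called here, both lower in SH, where 0.81% of all probe sets were called and 0.405% were called lower. Over 25 other settings of the analysis the difference stayed between -1.54 and -1.40, with an adjusted p of at most 0.000735.

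In air, the strain difference of Defb4 was in the same direction and its size depended on 1 array. The mean was 8313 ± 1334 in SH air and 12778 ± 3166 in SD air, a log2 difference of -0.59 (SE 0.157) that did not pass (limma adjusted p = 0.275). At 8378.4, the array labelled SD air replicate 2 lay inside the SH air range, and the other 3 SD air arrays averaged 14244 ± 1461. Without it the difference was -0.78 and passed, with an adjusted p of 0.00464, where 0.774% of all probe sets, 86 of 11106, were then called and 0.387% were called lower. With all arrays, 0 of the 6 tested genes were called in air, where 0% of all probe sets were called by limma, and 2 of the 6, Defb4 and Pigr, had an unadjusted p under 0.05, as 6.38% of all probe sets did.

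Against air, the mean of Defb4 in SO2 was lower in SH rats and higher in SD rats, and neither difference passed the test over all probe sets. The log2 difference was -0.39 (SE 0.157, limma adjusted p = 0.949) in SH rats, and 3 of the 4 SO2 arrays lay below every air array. It was 0.50 (SE 0.157, adjusted p = 0.429) in SD rats, where the 4 SO2 arrays lay above all 4 air arrays, and leaving out the array labelled SD air replicate 2 made it 0.31. The strain difference in the response to SO2, tested as an interaction, was -0.90 (SE 0.222, adjusted p = 0.959, and -0.71 without that array), which ranked 5 by p among all probe sets and did not pass. These comparisons share arrays with one another, so they are not separate pieces of evidence.

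**Figure D1:**
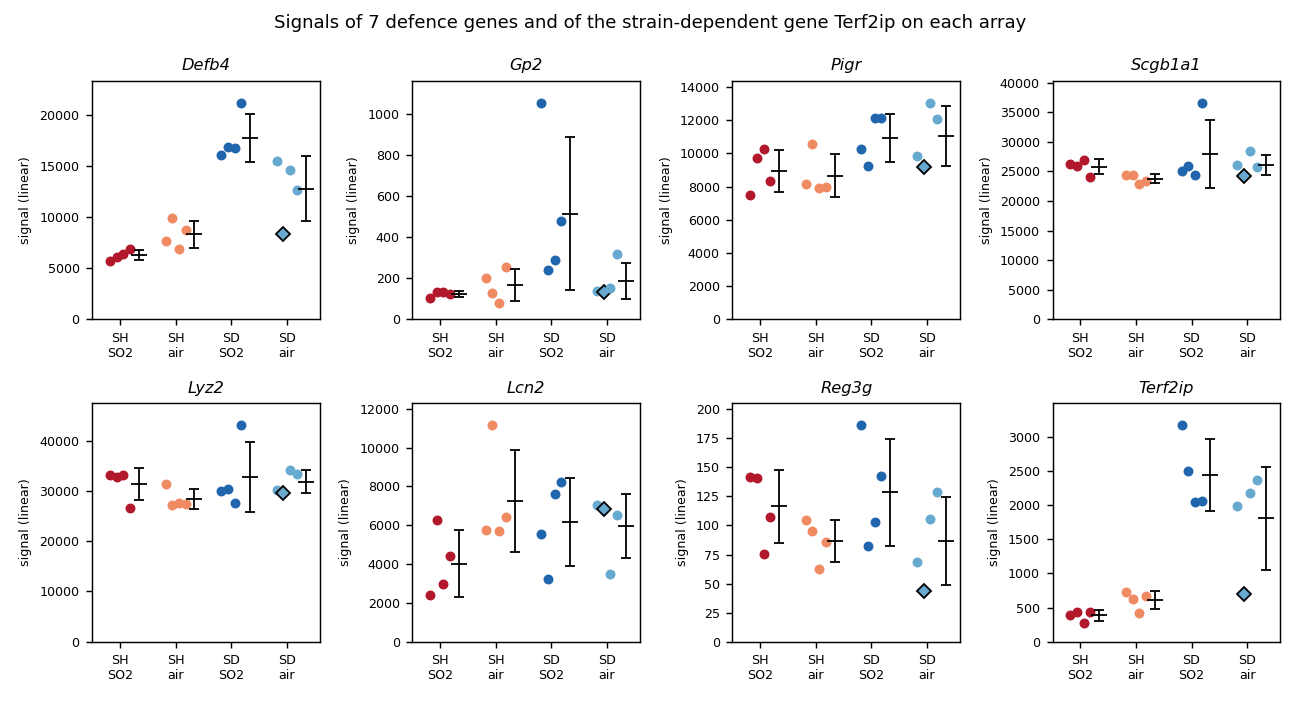
Signals (linear intensity, y axes from 0) of the 7 genes with a probe set and of Terf2ip, one point per array, with SH SO2, SH air, SD SO2 and SD air from left to right. Bars are mean and SD (n = 4) and the diamond is the array labelled SD air replicate 2. Defb4 in SO2 was 5717.3 to 6893.7 in SH rats, below 16080.6 to 21204.9 in SD rats, and the diamond lies near the SH arrays for Defb4 and Terf2ip.

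Gp2, a bacteria-binding glycoprotein known from pancreatic secretory granules and from M cells of mucosal lymphoid tissue (1386933_at, chr1:183228395-183243954), was lower in SH than in SD rats under SO2 and varied widely in SD rats. Its signal was 104.5, 135.0, 132.6 and 124.5 in SH SO2 and 202.1, 127.4, 81.4 and 254.3 in SH air. It was 1054.7, 238.0, 290.6 and 477.5 in SD SO2 and 139.4, 133.4, 153.9 and 320.0 in SD air. SD SO2 replicate 1 was the highest array by far, all 4 SD SO2 arrays lay above all 4 SH SO2 arrays, and 2 of the 4 also lay above every SD air array.

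Under SO2 the log2 difference between SH and SD rats was -1.69 (SE 0.380, 95% interval -2.48 to -0.89, limma adjusted p = 0.0381). The call was close to the threshold. Without SD SO2 replicate 1 the difference was -1.27 (adjusted p = 0.126). Without SD SO2 replicate 4 the adjusted p was 0.115, and without any 1 of the 4 SH SO2 arrays it lay between 0.0680 and 0.0967, and without SH air replicate 2 it was 0.0524. In air the strains overlapped, with a log2 difference of -0.17 (SE 0.380, adjusted p = 0.975), or -0.29 without the array labelled SD air replicate 2. SO2 against air gave -0.28 (adjusted p = 0.967) among SH rats, and gave 1.24 (SE 0.380, 95% interval 0.44 to 2.03, adjusted p = 0.429) in SD rats, neither of which passed, and the interaction was -1.52 (SE 0.538, adjusted p = 0.981). With that array left out, the SD difference was 1.12 and the interaction -1.40.

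Gp2 is abundant in pancreatic acinar cells, so acinar genes were read on the same arrays. Cpa1, a pancreatic carboxypeptidase, lay between 2.0 and 33.5 on all 16 arrays, near the 10th percentile of the arrays' signals, which was 17.1 to 26.8. The mean of Cpa1 was 5.0 in SH SO2 and 23.5 in SD SO2, the same direction as Gp2, but too dim to test. Of 27 pancreatic and salivary genes listed, 21 were on the array and 6 were bright enough to test. Between the strains in SO2 1 was called, Cela1, an elastase, where 0.81% of all probe sets were called. In air Cela1 was called without the array labelled SD air replicate 2, where 86 of all 11106 probe sets were called, and not with it. Averaged over both exposures Cela1 was higher in SH than in SD rats (1.13, SE 0.188, limma adjusted p = 0.00275). That adjusted p was at most 0.0103 over the other settings. In SO2 Cela1 was higher in SH than in SD rats (1.31, SE 0.266, limma adjusted p = 0.0175), the opposite direction to Gp2, a call lost without any 1 of SH SO2 replicates 1, 2 and 4 or SD SO2 replicates 2 and 4 (adjusted p from 0.0507 to 0.0836). The summed signal of the 21 genes was 5884 ± 418 in SH SO2, 6567 ± 395 in SH air, 5972 ± 1624 in SD SO2 and 6179 ± 418 in SD air. Umod, a relative of Gp2 from the kidney, lay between 17.2 and 44.5 in all groups. Of 13 genes linked to M cells, 6 were tested and 0 were called in SO2 between the strains, although 1, Prnp, the prion protein gene, was higher in SH rats averaged over both exposures (0.32, adjusted p = 0.0285), a call lost in 12 other settings, 10 of them with 1 array left out. Their part in the Gp2 result was not tested.

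Lcn2, lipocalin 2, which withholds iron from bacteria by binding their siderophores (1387011_at, chr3:36078432-36081851), had its largest difference in SH rats. Its signal was 2394.4, 6274.0, 2989.8 and 4427.1 in SH SO2, against 5734.6, 11156.1, 5729.3 and 6422.1 in SH air. In SD rats it was 5567.6, 3218.7, 7603.1 and 8242.1 in SO2, against 7022.6, 6815.4, 3496.4 and 6531.8 in air. In SH rats 3 of the 4 SO2 arrays lay below every air array, and in SD rats the ranges of the exposures overlapped.

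The log2 difference of SO2 against air was -0.89 in SH rats (SE 0.312, 95% interval -1.54 to -0.24), with a limma adjusted p of 0.949, and 0.0098 in SD rats (SE 0.312, interval -0.64 to 0.66, adjusted p = 0.997), or 0.091 there when the array labelled SD air replicate 2 was left out. The interaction was -0.90 (SE 0.441, adjusted p = 0.981, and -0.98 without that array), so the 2 responses were not shown to differ. Across 25 other settings the SH difference lay between -1.13 and -0.66 and was never called. Within SO2, Lcn2 was 4021 ± 1727 in SH rats and 6158 ± 2267 in SD rats (SD, n = 4 each; -0.62, adjusted p = 0.518). In SH rats, 0 of the 6 tested genes were called for SO2, where 0% of all probe sets were called by limma and 4.84% had an unadjusted p under 0.05. Among the 6, Lcn2 and Defb4 had such a p.

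Lcn2 is made by neutrophils and macrophages as well as epithelium. The summed signal of 9 neutrophil genes on the array was 3818 ± 348 in SH SO2 and 3816 ± 390 in SH air, and it was 2513 ± 730 in SD SO2 and 2866 ± 1122 in SD air. Of the 6 neutrophil genes tested, 0 were called in any comparison with all arrays. Without the array labelled SD air replicate 2, Cxcr1 was called between the strains in air, and Cxcr1, Fcgr3a and S100a8 averaged over both exposures, but none for SO2 in either strain. In that fit 86 of all 11106 probe sets were called between the strains in air and 274 averaged over both exposures. The summed signal of 16 macrophage genes was 31909 ± 2432 in SH SO2 and 37402 ± 2612 in SH air, the same direction as Lcn2. In that comparison 4 of the 15 tested lay above 0, with a median of -0.15, where 53.6% of all tested probe sets lay above 0, with a median of 0.017. In SD rats that sum was 34421 ± 2727 in SO2 and 32955 ± 4617 in air. The part of macrophage genes in the Lcn2 values was not tested.

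Pigr, the polymeric immunoglobulin receptor that carries IgA across epithelium (1371099_at, chr13:44851001-44879143), had overlapping signals in SO2 and air within each strain. Its signal was 7510.5, 9725.9, 10241.2 and 8331.5 in SH SO2, against 8172.2, 10582.6, 7884.9 and 7981.9 in SH air. It was 10252.0, 9204.8, 12105.0 and 12135.3 in SD SO2, against 9814.9, 9196.2, 13045.2 and 12077.1 in SD air. Every group overlapped with every other, although 3 of the 4 SH air arrays lay below all SD air arrays.

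SO2 against air gave a log2 difference of 0.049 (95% interval -0.24 to 0.33) in SH rats and -0.0092 (interval -0.29 to 0.28) in SD rats, with limma adjusted p of 0.980 and 0.993, and the SD value was -0.092 without the array labelled SD air replicate 2. Averaged over both exposures, Pigr differed by -0.32 between SH and SD rats (SE 0.0963, interval -0.52 to -0.12, adjusted p = 0.125) and was not called, also not without that array (-0.36, adjusted p = 0.0596). Defb4 was the 1 gene of the 6 called in that comparison, at -1.04 (SE 0.111, adjusted p = 1.97e-05), where 1.53% of all probe sets were called and 0.801% were called lower. Of 24 listed genes of mucosal IgA and plasma cells, 7 were on the array and tested, and 0 were called in any comparison. Without the array labelled SD air replicate 2, 1 was called averaged over both exposures, Tnfsf13, a survival factor for plasma cells. Of all 11106 probe sets, 274 were then called.

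Scgb1a1, the club cell secretory protein (1367566_at, chr1:215406138-215409686), and Lyz2, the lysozyme of macrophages and alveolar type II cells that cuts bacterial cell walls (1370154_at, chr7:54792715-54798060), are given together because their signals varied together, as described below. Scgb1a1 was 26254.1, 25966.7, 26983.1 and 24044.2 in SH SO2, against 24378.6, 24472.5, 22863.3 and 23334.9 in SH air. In SD rats it was 25027.9, 25862.8, 24385.8 and 36624.9 in SO2, against 26040.5, 24285.3, 28437.3 and 25734.1 in air. In SH rats 3 of the 4 SO2 arrays lay above every air array, and in SD rats 1 array, SO2 replicate 4, lay far above the rest.

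Lyz2 was 33069.8, 32663.3, 33144.6 and 26600.2 in SH SO2, against 31282.6, 27186.2, 27563.8 and 27318.2 in SH air. It was 29989.8, 30311.1, 27632.2 and 43064.6 in SD SO2, against 30143.9, 29542.2, 34147.5 and 33376.2 in SD air. As with Scgb1a1, 3 of the 4 SH SO2 arrays lay above every SH air array, SH SO2 replicate 4 lay below them all, and SD SO2 replicate 4 was the highest.

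None of these differences passed. SO2 against air gave 0.12 for Scgb1a1 (SE 0.107, 95% interval -0.11 to 0.34, limma adjusted p = 0.952) and 0.14 for Lyz2 (SE 0.118, interval -0.10 to 0.39, adjusted p = 0.949) in SH rats. In SD rats it gave 0.080 for Scgb1a1 (adjusted p = 0.888) and 0.023 for Lyz2 (adjusted p = 0.971). Without SD SO2 replicate 4 these SD differences were -0.056 and -0.12, and without the array labelled SD air replicate 2 they were 0.046 and -0.012. Between SH and SD rats in SO2 the differences were -0.097 for Scgb1a1 and -0.046 for Lyz2, and without SD SO2 replicate 4 they were 0.040 and 0.093. In SD rats 0 of the 6 tested genes were called for SO2, where 0% of all probe sets were called by limma and 8.24% had an unadjusted p under 0.05, and Gp2 and Defb4 were the 2 with such a p.

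The Scgb1a1 and Lyz2 signals varied together between arrays of the same group. With group means removed, Pearson's r of the log2 values was 0.91 over the 16 arrays (Spearman's rho 0.87), and 0.77 without the 2 arrays farthest from the median of Scgb1a1. Both also followed the mean of the 20 highest probe sets of the array, with r of 0.94 for Scgb1a1 and 0.91 for Lyz2. That mean includes both genes, and all points share the array's scaling. Gp2 and Reg3g varied together less closely, with r of 0.69 (rho 0.71, and 0.50 without the 2 farthest arrays). Both followed the 10th percentile of the array's signals, with r of 0.54 and 0.65. That was not particular to them, since r with it was 0.76 for Lyz2, 0.59 for Scgb1a1 and 0.48 for Pigr. It was 0.26 for Defb4 and 0.16 for Lcn2. Of the 21 pairs among the 7 genes, Scgb1a1 with Lyz2 and Gp2 with Reg3g had the highest r with all arrays. Without the 2 farthest arrays, Gp2 with Reg3g lay below Defb4 with Pigr (0.64), Defb4 with Scgb1a1 (0.59) and Pigr with Lcn2 (0.52).

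**Figure D2:**
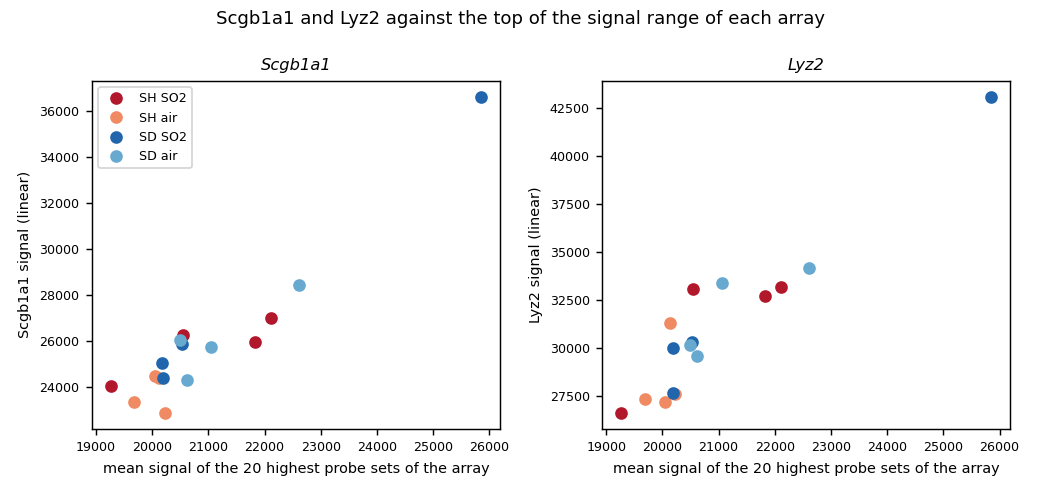
Signal (linear intensity) of Scgb1a1 on the left and Lyz2 on the right against the mean signal of the 20 highest probe sets of each array, one point per array, coloured by group; axes do not start at 0. Both genes lie higher on arrays with a brighter top of the range, and the array at 25853, SD SO2 replicate 4, has the highest value of both, at 36624.9 and 43064.6.

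Reg3g, a secreted lectin that binds Gram-positive bacteria in the mouse (1370631_at, chr4:112482183-112484738), was below the level at which probe sets were tested, since its mean lay at percentile 28.3 of all probe sets and the lowest 30% were left out. Its signal was 141.5, 140.5, 75.6 and 107.7 in SH SO2, against 104.5, 95, 62.3 and 86.0 in SH air. In SD rats it was 186.3, 82.1, 103.0 and 142.6 in SO2, against 68.6, 43.3, 105.9 and 128.4 in air. In SH rats 3 of the 4 SO2 arrays lay above every air array, and in SD rats 2 of the 4 did. In a fit without the filter, SO2 against air gave 0.35 in SH rats (SE 0.314, limma adjusted p = 0.963) and 0.52 in SD rats (SE 0.314, adjusted p = 0.763), neither of which passed. Its relatives Reg3b and Reg3a were also too dim to test, with signals of 13.8 to 209.7 and 5.0 to 97.5 over all arrays.

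Counting arrays that do not overlap, 2 of the 6 tested genes, Defb4 and Gp2, separated SH SO2 from SD SO2, both lower in SH, where 5.58% of all probe sets did so and 2.76% were lower. In SD rats 1 of the 6, Defb4, separated SO2 from air, with the higher values in SO2, where 3.54% of probe sets did and 2.07% were higher. In SH rats for SO2 and between the strains in air 0 of the 6 did, where 4.17% and 4.02% of probe sets did. All 6 tested genes had a lower mean log2 value in SH than in SD rats under SO2, as 49.9% of all probe sets did, with a median difference of -0.45, where the median of all probe sets was 0.0004. For Scgb1a1 and Lyz2 the sign turned without SD SO2 replicate 4 and also under quantile normalization, where they were 0.0097 and 0.037.

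**Figure D3:**
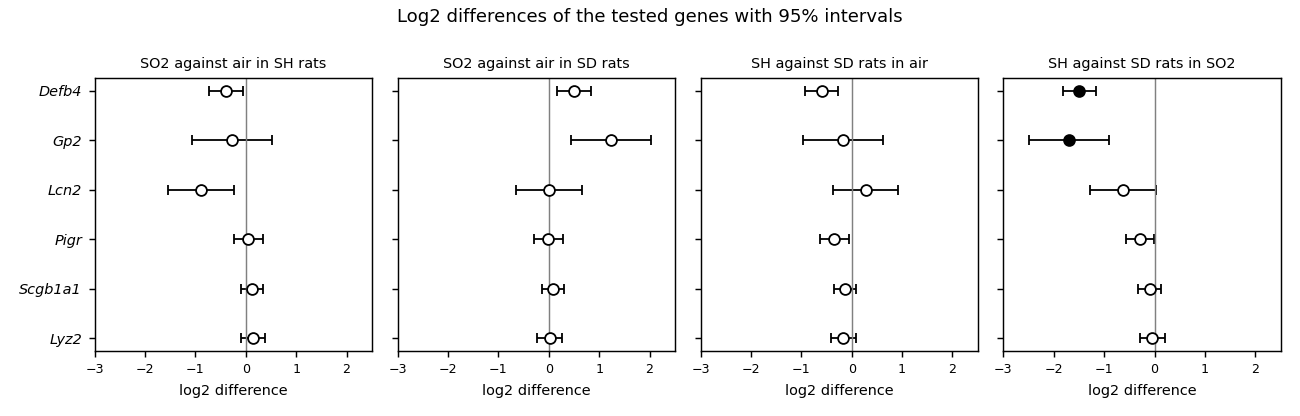
Log2 differences with 95% intervals from limma for the 6 tested genes, in the panels SO2 against air in SH rats, SO2 against air in SD rats, SH against SD rats in air and SH against SD rats in SO2. Filled points passed at an adjusted p under 0.05. Only Defb4 at -1.49 and Gp2 at -1.69 passed, both between the strains in SO2, and several other intervals leave 0 outside without passing the adjustment over all probe sets.

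Genes of the same cells and of the signals known to control this family were read from lists that exclude the genes above. Of 24 club cell and secretoglobin genes, 16 were tested, and in SO2 2 were lower and 1 was higher in SH than in SD rats, where 0.81% of all probe sets were called and 0.405% were called lower. The median of the 16 was -0.29 and that of all probe sets 0.0004. Cyp2f4, a cytochrome P450 of club cells that activates inhaled compounds, had a signal of 838.4, 600.4, 567.4 and 599.2 in SH SO2 and 1695.5, 1460.2, 1737.5 and 1399.1 in SD SO2. In air it was 898.0, 760.4, 693.3 and 812.3 in SH rats and 1471.7, 988.3, 1492.7 and 1874.5 in SD rats. All SH values lay below all SD values in both exposures, where 5.58% of all probe sets separated the strains in SO2 and 4.02% in air. The array labelled SD air replicate 2 was the lowest of the SD arrays. The log2 difference of Cyp2f4 between SH and SD rats was -1.26 in SO2 (SE 0.165, limma adjusted p = 0.000282) and -0.84 in air (SE 0.165, adjusted p = 0.0979). Leaving that array out made the difference in air -1.01, which passed (adjusted p = 0.00144).

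Cyp2a3, another airway cytochrome P450, was lower in SH SO2, at 608 ± 185, than in SD SO2, at 1545 ± 432 (-1.32, SE 0.231, limma adjusted p = 0.00621). Gsta3, a glutathione transferase, was the gene higher in SH rats, at 302 ± 28.7 in SH SO2 and 117 ± 10.5 in SD SO2 (1.26, SE 0.246, adjusted p = 0.0141, and 0.0511 without SH SO2 replicate 3). In air Gsta3 was 251.6 to 378.0 in SH rats and 96.7, 282.7, 111.5 and 114.6 in SD rats. The array labelled SD air replicate 2 thus lay in the SH range. With it the difference in air was 1.03 (limma adjusted p = 0.179), and without it 1.35 (adjusted p = 0.00103). Gsta3 was used to single out that array, so this widening follows from the choice. Lypd2 was lower in SH rats averaged over both exposures (-0.73, SE 0.165, adjusted p = 0.0266), a call lost in 9 other settings, 8 of them with 1 array left out. Against air, SO2 gave 0 called genes of the 16 in either strain, with 8 above 0 in SH rats and 12 above 0 in SD rats, where 53.6% and 53.4% of all probe sets were above 0.

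**Figure D4:**
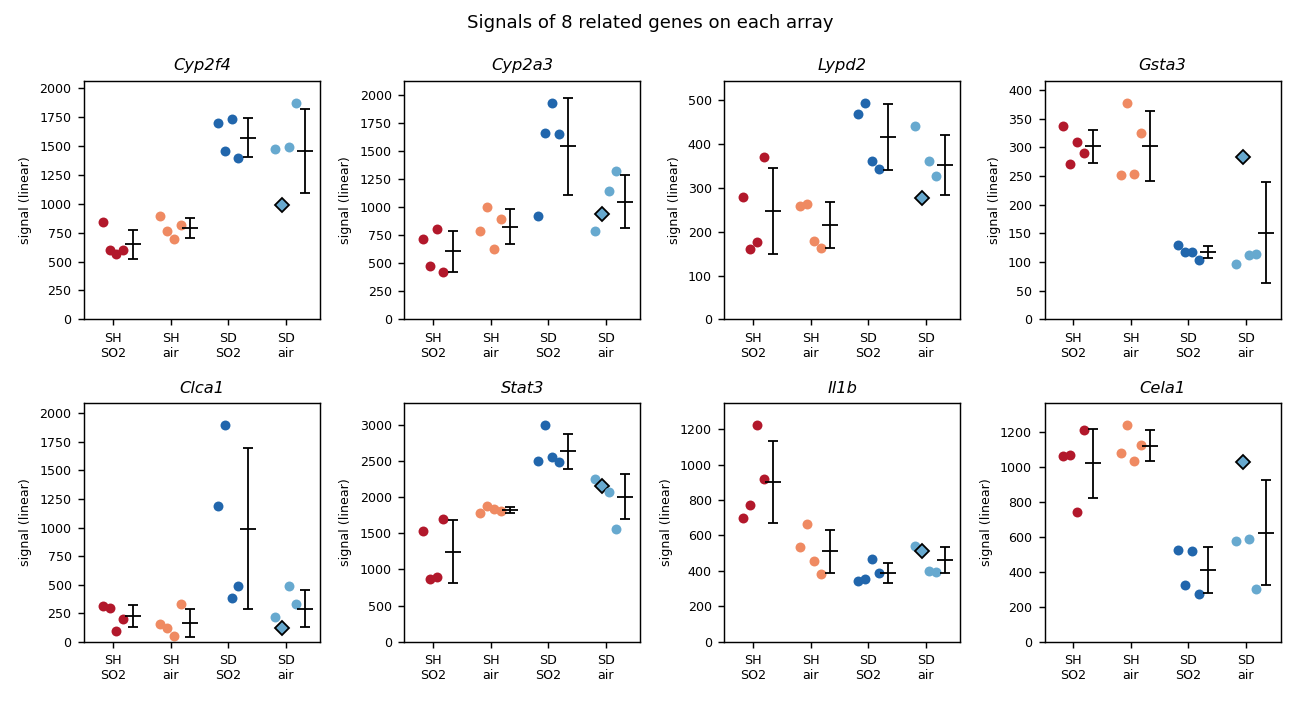
Signals (linear intensity, y axes from 0) of 8 genes from the related lists, one point per array, with SH SO2, SH air, SD SO2 and SD air from left to right, mean and SD as bars (n = 4), and the array labelled SD air replicate 2 as a diamond. Cyp2f4 in SO2 was 567.4 to 838.4 in SH rats, below 1399.1 to 1737.5 in SD rats, and the diamond lies among the SH arrays for Gsta3 and Cela1.

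Of 47 genes of inducing signals, among them interleukin 1, interleukin 17, NF-kappaB and Stat3, 23 were tested and 2 were called between the strains in SO2, where 0.81% of all probe sets were called. Stat3, a transcription factor downstream of interleukin 6 and interleukin 22, was 1531.3, 862.6, 895.0 and 1701.0 in SH SO2, against 2500.8, 2994.8, 2549.8 and 2489.1 in SD SO2. The groups did not overlap, where 5.58% of all probe sets did not, and the log2 difference was -1.13 (SE 0.178, limma adjusted p = 0.00235). In air Stat3 was 1826 ± 42.2 in SH rats and 2005 ± 309 in SD rats (-0.12, adjusted p = 0.957). Stat3 thus had the same order as Defb4, lower in SH than in SD rats under SO2, with a smaller difference in air. In air the 2 genes were less alike once SD air replicate 2 was left out. Stat3 then differed by -0.082 between SH and SD rats (limma adjusted p = 0.935) and Defb4 by -0.78 (adjusted p = 0.00464). Whether Stat3 had a part in the Defb4 values was not tested.

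Il1b, the cytokine interleukin 1 beta, ran the other way to Stat3 under SO2. It was 697.4, 772.4, 1222.4 and 916.1 in SH SO2, against 344.4, 354.9, 465.3 and 386.7 in SD SO2, with a log2 difference of 1.16 (SE 0.184, limma adjusted p = 0.00235). Against air, SO2 gave 0.80 for Il1b among SH rats (adjusted p = 0.402) with -0.24 among SD rats (adjusted p = 0.759). For Stat3 it gave -0.61 among SH rats (adjusted p = 0.789) with 0.40 among SD rats (adjusted p = 0.576). None of these 4 passed, and leaving out the array labelled SD air replicate 2 made the SD values -0.18 for Il1b and 0.44 for Stat3. All 4 SH SO2 arrays lay above all 4 SH air arrays for Il1b and below them for Stat3. Of all probe sets, 4.17% separated SH SO2 from SH air in either direction.

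Of 46 other antimicrobial genes, 14 were tested and 0 were called in any comparison with all arrays. In SH against SD rats in SO2, 12 of the 14 were above 0 (median 0.26), where 50.1% of all probe sets were (median 0.0004). In air 12 of the 14 were also above 0 (median 0.23), where 50.3% of all probe sets were (median 0.001). Among them S100a8, a calprotectin subunit of neutrophils, differed by 1.01 between SH and SD rats averaged over both exposures (adjusted p = 0.0798), and in SD air it was 446.1 on the array labelled SD air replicate 2 against 82.6 to 211.6 on the others. Without that array S100a8 differed by 1.24 averaged over both exposures and passed (adjusted p = 0.00401), as did 1 other gene of the list, Wfdc1. In that comparison 274 of all 11106 probe sets then passed. Defb1, a constitutive beta-defensin, was dim in all groups, at 8.9 to 29.0. Of 25 mucous and goblet cell genes, 11 were tested and 0 were called with all arrays, and Clca1 was called averaged over both exposures without that array (-1.54, adjusted p = 0.0251). The lowest p of that list between the strains in SO2 was that of Clca1, a goblet cell secretory protein, at 309.6, 292.2, 95.5 and 200.9 in SH SO2 and 1190.1, 1897.0, 382.3 and 491.5 in SD SO2 (-1.90, SE 0.514, limma adjusted p = 0.114). As with Gp2, the SD SO2 arrays of Clca1 were spread widely and all lay above the SH SO2 arrays, but the difference did not pass. Of all probe sets, 5.58% separated these groups.

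Markers of ciliated cells (5 tested), basal and squamous epithelium (7), alveolar type II cells (14) and alveolar type I cells (10) gave 0 called genes in any comparison with all arrays. They gave 1, Krt18, averaged over both exposures when the array labelled SD air replicate 2 was left out, where 274 of all 11106 probe sets were called. The summed signal of the 5 ciliated cell genes was 6069 ± 616 in SH SO2, 5453 ± 370 in SH air, 7043 ± 946 in SD SO2 and 5877 ± 551 in SD air. That of the 18 club cell genes was 27756 ± 2841 in SH SO2, 32798 ± 2734 in SH air, 33857 ± 6159 in SD SO2 and 30968 ± 2537 in SD air. Within SO2 the strains overlapped, at 25328 to 31498 in SH and 29091 to 42496 in SD rats, and the SD SO2 mean was 30977 without replicate 2. Its part in the Defb4 result was not tested.

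Over the 16 arrays with group means removed, the genes whose log2 values followed each tested gene most closely, out of 8059 others, are given as a description, since the points share scaling and the search was wide. For Defb4 they were Cmpk1 (r = 0.87), Car8 (0.82) and Cx3cl1 (0.82). Car8 and Cx3cl1 were also lower in SH rats averaged over both exposures (-0.54, limma adjusted p = 0.0182, and -0.87, adjusted p = 0.0110). These correlations include the array labelled SD air replicate 2, where Defb4 was low for its group. Leaving it out moved the strain difference in air from -0.54 to -0.70 for Car8 and from -0.89 to -1.16 for Cx3cl1. How far that array carries the correlations was not tested. For Lcn2 they were Ccl6 (0.93), a chemokine of myeloid cells, Nhej1 (0.90) and Ndufv1 (0.86). For Scgb1a1 they were Sftpc (0.94), Lyz2 (0.91) and Rida (0.88), and for Lyz2 Sftpc (0.95), Thrap3 (0.92) and Scgb1a1 (0.91). For Pigr they were Psmb8 (0.84), Stmp1 (0.83) and Unc45a (0.82), and for Gp2 Tpbgl (0.89), Lzic (0.88) and Ptrh2 (0.88).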

How the data were processed

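Lung total RNA of 16 rats was measured on Affymetrix arrays. The authors deposited linear intensity values, 1 for each array and probe set. GCOS made them, per the submitters' processing notes, in a version not given in the sources used here. Detection calls were not used. From 15923 probe sets, 57 controls were left out. Gene symbols came from the platform annotation, and positions and promoter windows from RefSeq tables of build GRCr8. Arrays were grouped by the strain and exposure in the labels.

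Values were taken as log2(intensity + 16), which makes changes of dim probe sets look smaller. Without the lowest 30% by mean, 11106 probe sets remained, and 4 group means were fitted to all 16 arrays with limma 3.58.1 in R 4.3.3 (lmFit, eBayes with a trend), for 7 comparisons, with Benjamini-Hochberg adjustment. The fit was tested on simulated data. Figures used matplotlib 3.10.9 in Python 3.11.15.

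The genes, lists and comparisons were chosen with earlier results of these data known. Besides the 8 genes, the text names from each list the genes called, or those of smallest p, and the 3 genes most correlated with each tested gene; Terf2ip and the other markers were named to check arrays and cell types. Arrays of the same replicate number did not deviate together (correlations from -0.249 to 0.151), so the numbers were not used to pair them. Alternatives were offsets of 1 and 64, quantile normalization, median centring, no filter, the lowest 50% left out, a replicate block, eBayes without a trend, each array left out and, chosen after seeing the data, the actin ratio as a covariate. The number of arrays limits the precision.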

Additional observations from a re-analysis of the deposited data

Results flagged for a closer look

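In 8 of 28 groups of 4 arrays (7 genes in 4 groups), 1 array lay far from the other 3, with a gap over 0.829 of the group's range. Chance gives such a gap in about 1 of 20 groups of independent, normally spread values. The 7 genes share the same arrays and were read as linear signals, so the count of 8 does not measure an excess over chance. SD SO2 replicate 4 was such an array for Defb4, at 21204.9 against 16080.6 to 16846.4 on the other 3, and for Scgb1a1, at 36624.9 against 24385.8 to 25862.8. Lcn2 had 2, SH air replicate 2 at 11156.1 against 5729.3 to 6422.1, and SD air replicate 3 at 3496.4 against 6531.8 to 7022.6. Lyz2 also had 2, SH SO2 replicate 4 at 26600.2 against 32663.3 to 33144.6, and SH air replicate 1 at 31282.6 against 27186.2 to 27563.8. For Pigr it was SH air replicate 2, at 10582.6 against 7884.9 to 8172.2, and for Gp2 SD air replicate 4, at 320.0 against 133.4 to 153.9.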

How the results depend on the processing

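Of the counts of called genes, 163 values under the alternatives were within 1.5 times the reported count and 12 were not. Between the strains in SO2, where 2 genes were called, 1 was called with no filter on dim probe sets, with eBayes without a trend, and with the lowest 50% left out, where Gp2 was not tested; with 1 array left out the count ran from 1 to 2. In air 0 to 1 were called with 1 array left out, and averaged over both exposures 1 to 2, where Gp2 passed without SD SO2 replicate 2 (-1.07, adjusted p = 0.0461). With the replicate block the counts were the same, 2 between the strains in SO2, 1 over both exposures and 0 in the others.

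Signs turned only for small differences that were not called. With quantile normalization Lyz2 gave -0.037 for SO2 in SD rats, 0.037 between the strains in SO2 and 0.018 over both exposures, Scgb1a1 gave 0.0097 between the strains in SO2, and Pigr 0.035 for SO2 in SD rats. With arrays centred on their medians, Pigr gave -0.0065 for SO2 in SH rats, and for SO2 in SD rats Lyz2 gave -0.014 and Lcn2 -0.027. With the actin ratio as a covariate Pigr gave 0.048 for SO2 in SD rats. With 1 array left out, SO2 in SD rats ran from -0.056 to 0.14 for Scgb1a1, from -0.12 to 0.097 for Lyz2, from -0.092 to 0.076 for Pigr and from -0.23 to 0.29 for Lcn2. SO2 in SH rats ran from -0.019 to 0.15 for Pigr. Between the strains, Gp2 in air ran from -0.40 to 0.10, and in SO2 Scgb1a1 from -0.16 to 0.040 and Lyz2 from -0.12 to 0.093. The causes were not tested. Over all probe sets, leaving out SD air replicate 2 also moved the calls averaged over both exposures to 274, against 170 with it.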

Other observations

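Mmp9, a gelatinase whose complex with lipocalin 2 is described for the human proteins, was too dim to be tested and was singled out after its values were seen. On 1 of its probe sets it was 55.7 ± 7.51 in SH SO2 and 22.3 ± 12.4 in SH air, and 54.3 ± 24.3 in SD SO2 and 15.7 ± 10.6 in SD air (SD, n = 4 each). The SH groups did not overlap, at 46.2 to 64 in SO2 and 6.1 to 34.9 in air, and the SD groups did. Of the tested probe sets, 4.17% separated the SH groups. In a fit without the filter on dim probe sets, SO2 against air averaged over both strains gave 1.04 (SE 0.236, limma adjusted p = 0.245), which did not pass. Its second probe set gave 0.86 in SH rats, 0.073 in SD rats and 0.47 over both strains (SE 0.315, adjusted p = 0.752). Lcn2 differed by -0.44 over both strains (adjusted p = 0.602).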
